A study of Mus musculus with 10 samples.

Results

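The respiratory chain genes described here are the 101 of 23086 genes in the deposited table whose symbols name subunits of complexes I to V of oxidative phosphorylation (or the Ndufaf assembly factors of complex I) and whose mean over all libraries was at least 100 normalized counts. Of 112 symbols with a matching name, 11 fell under that mean. The member just above it was the assembly factor gene Ndufaf6 (mean 127), and the gene just below it was Cox7a1 (mean 93.7). The nucleus encodes 88 members and mitochondrial DNA (mtDNA) encodes 13. RNA was sequenced from 10 urothelial tumours of BBN963 cells, a mouse bladder carcinoma line named after the carcinogen BBN, which were grown in mice and collected at a stated tumour volume. In 5 tumours the cells were ATM-WT, and in 5 they were ATM-KO, lacking the DNA damage kinase ATM. No drug treatment is given for either group. The labels used here do not give the mouse strain, sex or age, the lesion made in Atm or the number of knockout clones, nor do they say that each tumour came from its own animal, so p-values reflect nothing beyond the scatter of these samples, which may be technical.

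Oxidative phosphorylation is the work of large protein assemblies in the inner mitochondrial membrane. Complexes I (NADH dehydrogenase) and II (succinate dehydrogenase) pass electrons to coenzyme Q, complex III passes them to cytochrome c and complex IV (cytochrome c oxidase) to oxygen, and complex V (ATP synthase) uses the proton gradient to make ATP. Apart from complex II, each is built from subunits of both genomes, and the mtDNA genes are transcribed as long polycistronic RNAs that are cut into single transcripts. Dividing tumour cells rely on the chain for aspartate and nucleotide synthesis as well as for ATP.

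Levels are the authors' normalized counts, a signal that can be compared between libraries gene by gene but not between genes, because it is not divided by transcript length. Each library summed to 20.2 to 22.3 M (mega) normalized counts, and the spacing of low values gave a rough estimate of 20.6 to 28.3 M reads per library, except 8.82 M for ATM-WT library A2. Differences are given as log2(value + 1) in ATM-KO less that in ATM-WT, ± SE, from limma over all 16517 tested genes. A positive value is higher in ATM-KO, and "called" means a Benjamini-Hochberg adjusted p under 0.05. Atm itself ranged from 311 to 768 normalized counts in ATM-WT and from 312 to 659 in ATM-KO (-0.068 ± 0.26, limma adjusted p = 0.85), so its transcript level does not check the labels. Markers of some cell types differed between the groups. All 10 epithelial marker genes were called lower in ATM-KO, with a summed level of 80951 to 233619 in ATM-WT and 2372 to 4059 in ATM-KO. Among 10 fibroblast markers 8 were called lower, and their sums ranged from 161644 to 580327 and from 37809 to 109851. Macrophage markers, with 1 of 8 called higher, summed to 20699 to 61902 and 36544 to 55634. Of the other lists, 1 of 7 T cell markers was called higher, 1 of 7 endothelial markers lower and 4 of 5 red blood cell markers higher. Among 5 tested adipocyte markers 1 was called higher and 1 lower. For cardiac and smooth muscle 1 of 5 was called higher, and for skeletal muscle 0 of 11 were called. Over all tested genes 22.1% were called higher and 24.3% lower, and every list with 1 call in a direction lay below that share. No marker of these lists was at 0 in every library, but the epithelial markers of the labelled urothelial tissue were far lower in every ATM-KO library than in any ATM-WT library by their sum. In whole tumours, fewer cells of a type and less RNA per cell cannot be told apart, and the part of cell makeup in the results below was not tested.

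The nuclear and the mitochondrial part of the chain differed in how they separated the groups. Nuclear-encoded members together took 0.853, 1.18, 1.10, 1.11 and 1.05% of the library total in ATM-WT libraries A1 to A5 and 1.22, 1.31, 1.35, 1.33 and 1.48% in ATM-KO libraries A11 to A15. Every ATM-KO library lay above every ATM-WT library in this sum, with means of 1.06 ± 0.124% and 1.34 ± 0.0941% (SD, n = 5 each). For the mtDNA-encoded members the same shares were 1.98, 3.76, 2.42, 2.95 and 2.37% in ATM-WT and 1.96, 3.03, 2.08, 2.25 and 2.46% in ATM-KO. These overlapped, with means of 2.70 ± 0.690% and 2.36 ± 0.419%. The highest was ATM-WT library A2, whose depth was roughly estimated as low, and the next was ATM-KO library A12. The mtDNA-encoded sum was 2.32, 3.19, 2.21, 2.66 and 2.25 times the nuclear-encoded sum in ATM-WT and 1.61, 2.30, 1.55, 1.69 and 1.66 times in ATM-KO. Only ATM-KO library A12 reached into the ATM-WT range of this ratio. These sums are descriptions with no test.

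**Figure D1:**
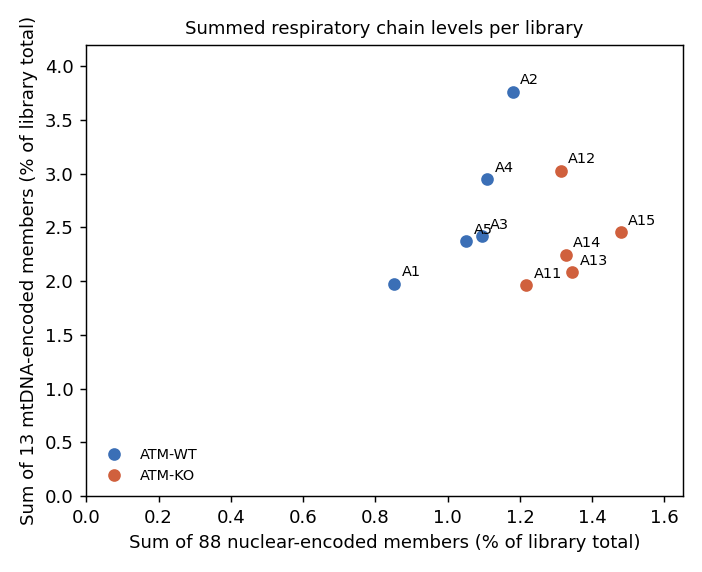
Summed normalized counts of the 88 nuclear-encoded members (x axis, % of the library total) and of the 13 mtDNA-encoded members (y axis, % of the library total), 1 point per library. ATM-KO libraries lie to the right of ATM-WT libraries (1.22 to 1.48% against 0.853 to 1.18%), while the groups overlap on the y axis.

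Libraries within a group also moved as a whole. In ATM-WT, library A1 was the lowest of its group for 68 of 88 nuclear-encoded members and for 9 of 13 mtDNA-encoded members, and A2 was the highest for 47 and 11. In ATM-KO, library A15 was the highest for 59 nuclear-encoded members and A12 for 10 of the mtDNA-encoded ones. The highest library in ATM-KO was therefore not the same for both genomes.

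**Figure D2:**
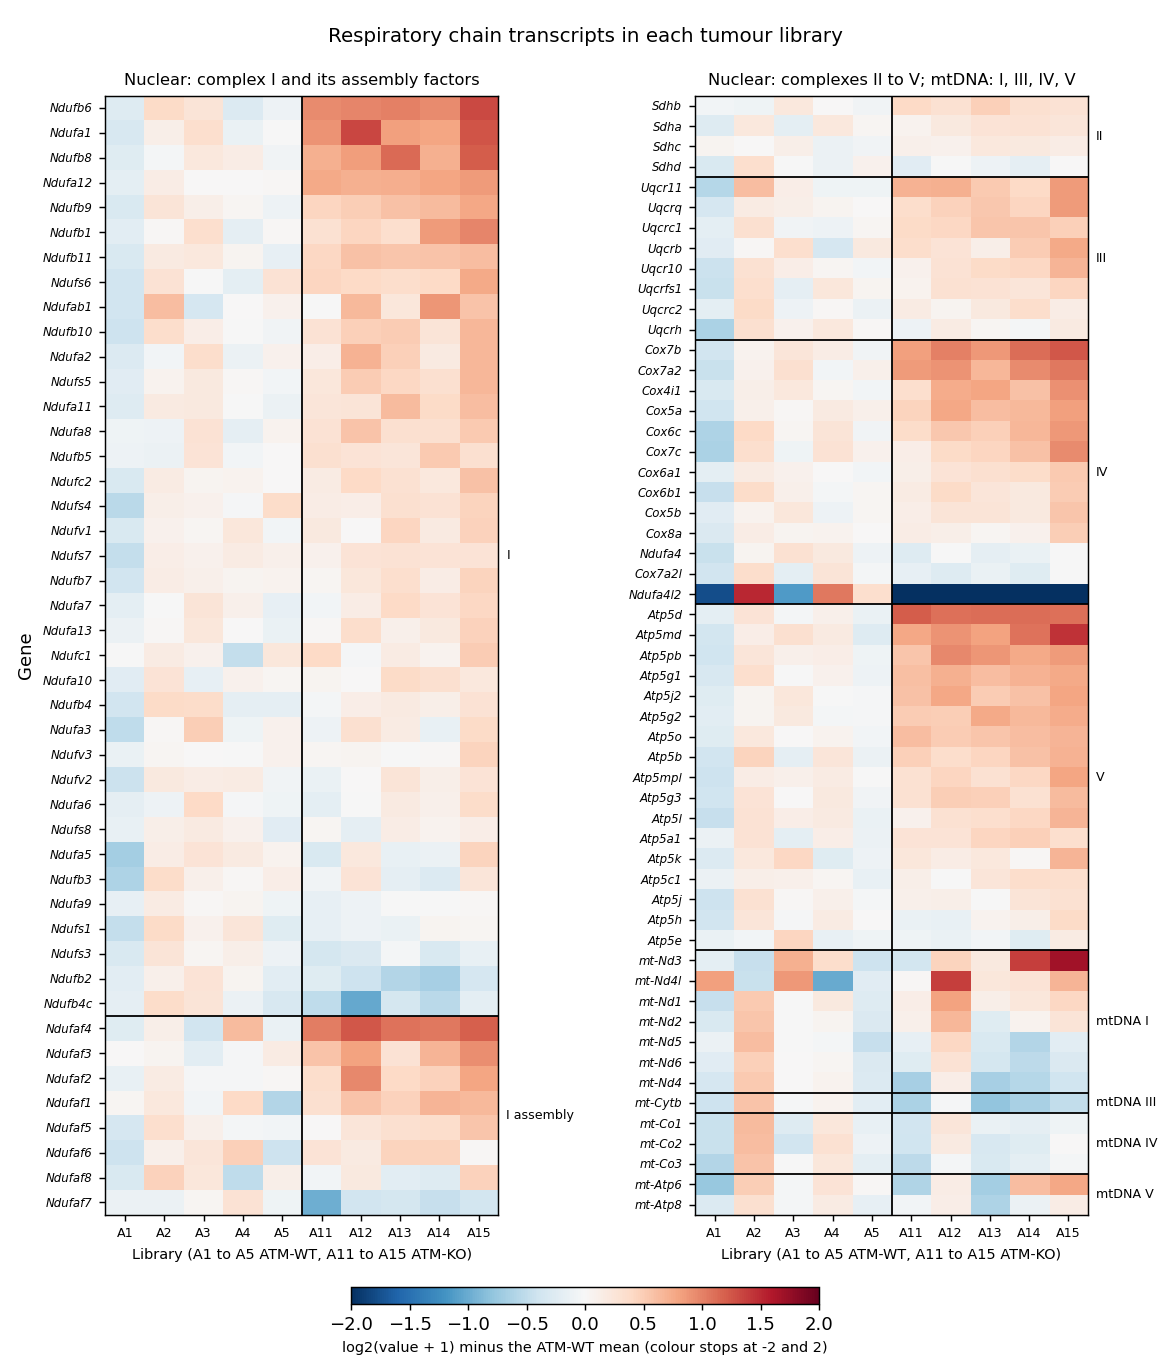
Each row is a member, with 1 of the 101 not shown, and each column is a library. Colour is log2(value + 1) minus the ATM-WT mean of that gene, from -2 (blue) to 2 (red), and black lines divide the groups and complexes. Most nuclear rows are red in the 5 ATM-KO columns, Ndufa4l2 is the dark blue row of complex IV, and mtDNA rows vary with the library.

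Of the 88 nuclear-encoded members, 43 (48.9%) were called higher in ATM-KO and 3 lower, and 42 were not called. Over all tested genes, 22.1% were called higher and 24.3% lower by the same rule, and of the 12119 genes with a mean of at least 100, 26.7% and 24.7%. The median difference of nuclear-encoded members was 0.33, and 76 of the 88 had a positive value. It was 0.0047 over all tested genes and 0.042 over genes with a mean of at least 100. With 1 library left out, the nuclear-encoded median ranged from 0.25 (without ATM-WT library A1) to 0.37 (without ATM-WT library A2). At the same library total it was 0.26, beside -0.058 over all tested genes. For 29 nuclear-encoded members every ATM-KO library lay above every ATM-WT library, and for 3 below, where 17% and 18.2% of all tested genes did so. Of the 13 mtDNA-encoded members, 0 were called higher and 1 lower, the median was -0.11, and the groups overlapped for all 13. The sign of this median rested on ATM-WT library A2, since it was 0.00049 without A2 and 0.064 without A2 and A4. No other single library changed the sign when left out. The median was -0.20 without ATM-WT library A1 and -0.20 without ATM-KO library A12. At an unadjusted limma p under 0.05, 0 of the 13 were higher and 1 was lower. Without ATM-WT libraries A2 and A4, which listed the most genes at 0, 48 nuclear-encoded members were called higher and 3 lower. Transcript length moved with these calls. The longest protein-coding transcript in GENCODE M21 had a median of 761 bases for nuclear-encoded members called higher and 1046 bases for those not called. Among all 527 tested genes with a mean of at least 100 and a length under 1000 bases, 41.2% were called higher and 13.9% lower with a median of 0.30, and 26 of 46 nuclear-encoded members in that class (56.5%) were called higher with a median of 0.39. In the next class, from 1000 bases to double that, 30.8% of 2133 genes and 10 of 27 members (37.0%) were called higher. Among longer genes, 25.6% of 8744 were called higher and 26.2% lower, against 4 and 2 of 11 members (36.4% higher). The part of length in the calls was not tested.

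**Figure D3:**
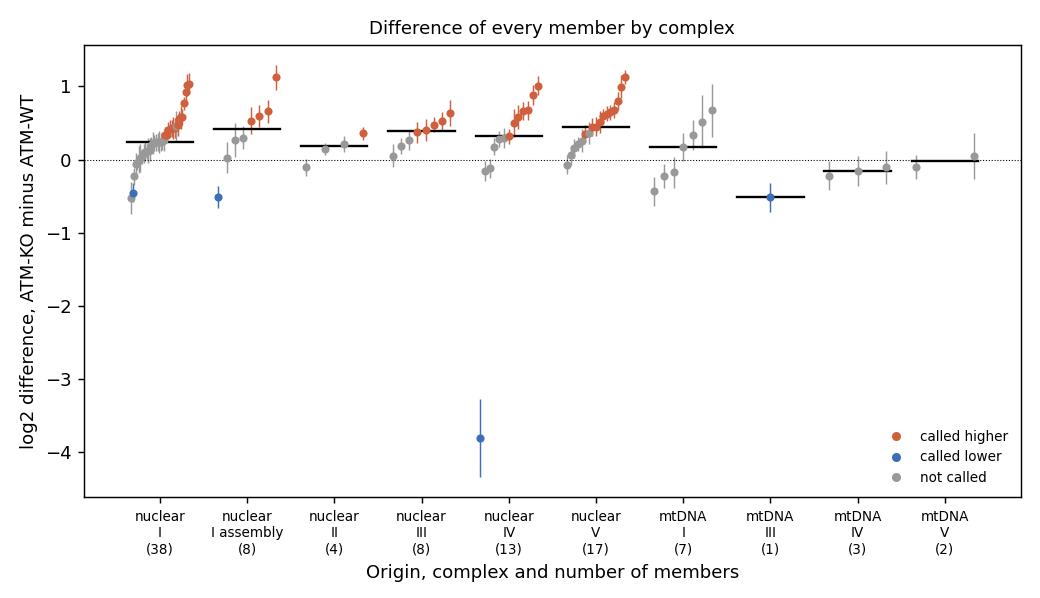
Difference of every member (ATM-KO minus ATM-WT, log2, ± SE) by genome and complex, with the number of members in brackets. Orange points were called higher, blue points lower and grey points not called. Black bars are medians, which are 0.24 to 0.45 for nuclear complexes I, III, IV and V and 0.18 for complex II.

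Promoters of many nuclear respiratory genes are known to hold sites for nuclear respiratory factor 1 (NRF1), whose palindromic site can be written as GCGCA followed directly by its reverse complement TGCGC. RefSeq promoter entries matched 73 of the 88 nuclear-encoded members by symbol. In the 250 bases before the start, these letters, which read the same on both strands, were found in 5 of the 73 (6.85%), against 211 of 27025 genes with an entry (0.781%). The 5 were 4 of the 35 members called higher that had an entry and 1 of the 36 not called. They are shown because they place the shared motif in members of different complexes, with the NRF1 site in capitals (RefSeq, GRCm38.p6, 5′ to 3′ on the gene's strand). A match describes the letters and is not a measured binding site. The windows are chr17:56717512-56717761, plus strand, for the complex I gene Ndufa11, chr4:24897833-24898082, plus strand, for the assembly factor gene Ndufaf4, chr5:115348959-115349208, minus strand, for the complex IV gene Cox6a1, and chr15:102671048-102671297, minus strand, for the complex V gene Atp5g2, all called higher. The window of the complex V gene Atp5k, which was not called, is chr5:108434400-108434649, minus strand.
Ndufa11: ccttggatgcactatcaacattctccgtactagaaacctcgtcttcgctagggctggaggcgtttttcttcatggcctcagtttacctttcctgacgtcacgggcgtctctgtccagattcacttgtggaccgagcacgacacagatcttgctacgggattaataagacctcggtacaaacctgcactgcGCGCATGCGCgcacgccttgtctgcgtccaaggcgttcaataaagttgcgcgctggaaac
Ndufaf4: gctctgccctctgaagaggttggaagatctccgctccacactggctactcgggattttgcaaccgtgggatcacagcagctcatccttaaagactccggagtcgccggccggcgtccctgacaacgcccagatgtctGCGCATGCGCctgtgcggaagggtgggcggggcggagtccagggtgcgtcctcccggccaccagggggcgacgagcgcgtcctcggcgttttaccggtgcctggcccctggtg
Cox6a1: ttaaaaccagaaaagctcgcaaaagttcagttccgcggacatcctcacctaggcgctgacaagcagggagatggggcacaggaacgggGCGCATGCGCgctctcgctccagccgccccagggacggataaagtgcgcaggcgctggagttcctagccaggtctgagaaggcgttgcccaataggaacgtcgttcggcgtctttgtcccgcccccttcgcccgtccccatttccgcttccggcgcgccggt
Atp5g2: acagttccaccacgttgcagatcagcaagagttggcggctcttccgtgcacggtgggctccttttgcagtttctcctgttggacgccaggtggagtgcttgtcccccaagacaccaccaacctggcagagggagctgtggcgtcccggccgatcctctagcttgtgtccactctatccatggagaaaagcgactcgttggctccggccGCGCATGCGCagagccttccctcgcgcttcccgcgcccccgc
Atp5k: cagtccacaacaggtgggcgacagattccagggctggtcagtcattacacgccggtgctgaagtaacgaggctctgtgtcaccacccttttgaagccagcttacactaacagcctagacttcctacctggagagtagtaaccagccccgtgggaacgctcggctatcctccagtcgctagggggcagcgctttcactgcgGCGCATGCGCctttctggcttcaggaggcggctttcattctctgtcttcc
This site began 42 to 162 bases before the start in these genes. The ETS core CCGGAAG, the recognition letters of the regulator GABP, was present on either strand in 4 of 35 members called higher, in 9 of 36 not called and in 7.05% of all genes with an entry. The hypoxia factor's core ACGTG was in 10 of 35, 5 of 36 and 16.6%, and the letters AAGGTCA of the ERR receptors were in 2 of 35, 2 of 36 and 4.05%. The 1 motif searched for the factor YY1 was in 0 of the 73 members' promoters and in 1.59% of all. The gene Nrf1 went from 695 ± 134 to 821 ± 64.5 and was not called (0.26 ± 0.13, limma adjusted p = 0.13). Gabpa, which encodes the DNA-binding subunit of GABP, rose (0.42 ± 0.12, limma adjusted p = 0.010).

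In complex I, accessory subunits carried the calls. Of 38 nuclear-encoded subunits, 15 rose, 1 fell and 22 were not called, with a median of 0.24. The 7 nuclear-encoded core subunits, which hold the NADH site and the iron-sulfur clusters and are shared with the bacterial enzyme, were all among those not called, with values from -0.23 (Ndufs3) to 0.25 (Ndufv1). In this fit 0 of the 7 had an unadjusted limma p under 0.05 in either direction. Among the 31 accessory subunits, which surround the core, 15 rose and 1 fell, with a median of 0.33. These counts, like those by complex below, stand beside 26.7% called higher and 24.7% lower among all genes with a mean of at least 100. Of such genes with a length under 1000 bases, 41.2% were called higher and 13.9% lower. The division into core and accessory subunits was chosen after the values were seen, and the difference between them was not tested.

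The accessory gene with the smallest p was Ndufa12, which encodes a subunit of the electron input arm. It held 1012, 1290.3, 1165, 1161 and 1181 normalized counts in ATM-WT and 1965, 1899.7, 1923, 1996 and 2102 in ATM-KO. All ATM-KO values lay above all ATM-WT values, a rise of 0.77 ± 0.087 or 1.71-fold (limma adjusted p = 1.89e-05). Ndufb6, a subunit of the membrane arm, held 811, 1276, 1159.6, 809 and 903 in ATM-WT and 1875, 1914, 1957, 1871 and 2426 in ATM-KO, again without overlap (1.04 ± 0.14, limma adjusted p = 8.24e-05). Library A15 was the highest of its group. The X-linked gene Ndufa1, which encodes a small subunit needed for assembly of the membrane arm, rose from 887 ± 155 to 1800.0 ± 328 (1.02 ± 0.15). Also without overlap were the membrane arm genes Ndufb8 from 2290.5 ± 286 to 4352 ± 736 (0.92 ± 0.13) and Ndufb9 from 2612 ± 375 to 3889 ± 363 (0.58 ± 0.11). The 1 subunit gene that fell was Ndufb2, another membrane arm subunit, with 873, 1073, 1209.9, 1041 and 868 in ATM-WT and 852, 750.1, 668, 632 and 792 in ATM-KO (-0.45 ± 0.13, limma adjusted p = 0.011, exact permutation p = 0.0079). Here all ATM-KO values lay below all ATM-WT values. Ndufb4c, a close copy of Ndufb4 that can share its reads, had -0.52 ± 0.22 and was not called (limma adjusted p = 0.069), and Ndufb4 had 0.14 ± 0.15, so both levels are uncertain.

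Among the 8 Ndufaf assembly factors, which help build complex I without staying in it, 4 rose, 1 fell and 3 were not called. Over all genes with a mean of at least 100, 26.7% were called higher and 24.7% lower. Ndufaf4, which acts in early assembly, held 522, 671, 474, 958 and 566 in ATM-WT and 1257, 1469.5, 1313, 1285 and 1419 in ATM-KO. Its groups did not overlap, with ATM-WT library A4 closest to ATM-KO (1.12 ± 0.17, 2.18-fold, limma adjusted p = 1.49e-04). The rises of Ndufaf1, Ndufaf2 and Ndufaf3 were smaller, from 0.53 to 0.66. Ndufaf7, a methyltransferase needed for complex I assembly, fell from 556 ± 69.7 to 393 ± 63.9 (-0.51 ± 0.15, limma adjusted p = 0.014) with no overlap. Outside the symbol pattern, 2 of 11 tested complex I assembly genes rose and 2 fell, both below the shares over all tested genes (22.1% and 24.3%). Timmdc1 rose (0.77 ± 0.13) and so did Acad9 (0.58 ± 0.14), both factors of the membrane arm's assembly, while Dmac2 fell from 403 ± 74.9 to 189 ± 10.1 (-1.07 ± 0.15, limma adjusted p = 1.04e-04).

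Complex II, the only complex of purely nuclear origin, had 1 of 4 subunits called higher and 0 lower, a share near the 26.7% of all genes with a mean of at least 100 called higher. Sdhb, the iron-sulfur subunit, held 1698, 1671, 2044, 1789 and 1678 in ATM-WT and 2333, 2192, 2452, 2214 and 2161 in ATM-KO. Its groups did not overlap (0.36 ± 0.087, 1.28-fold, limma adjusted p = 0.0047, exact permutation p = 0.0079). The flavoprotein gene Sdha, which encodes the catalytic subunit, had 0.21 ± 0.11 (95% interval -0.022 to 0.45). The membrane anchor genes Sdhc and Sdhd had 0.15 ± 0.079 and -0.10 ± 0.12, and neither was called (limma adjusted p = 0.15 and 0.50). Of 4 complex II assembly genes, Sdhaf2, which inserts the flavin, rose (0.29 ± 0.11, limma adjusted p = 0.040).

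In complex III, 5 of 8 nuclear-encoded members rose and 0 fell, and all 8 had positive values. Uqcrc1, a structural core protein of the matrix side, held 2728, 3902, 2975, 2907 and 3199.7 in ATM-WT and 4051, 4158, 4581, 4589 and 4345 in ATM-KO. The groups did not overlap, ATM-WT library A2 lying just under the ATM-KO range (0.48 ± 0.10, limma adjusted p = 0.0021). Uqcrq, a small subunit beside cytochrome b, rose from 4179 ± 538 to 6016 ± 846 (0.53 ± 0.12). Uqcr11 (0.63 ± 0.18), Uqcrb (0.40 ± 0.15) and Uqcr10 (0.37 ± 0.14) were called with overlapping groups. The calls of Uqcrb and Uqcr10 (limma adjusted p = 0.047 and 0.0491) were lost under many alternatives, such as leaving out ATM-WT library A1 (limma adjusted p = 0.094 and 0.097). The iron-sulfur protein gene Uqcrfs1 was not called (limma adjusted p = 0.14). The symbol pattern leaves out Cyc1, the gene of the electron-carrying cytochrome c1 subunit. Cyc1 held 2625, 3387, 3075, 3093 and 2670.3 in ATM-WT and 6575, 6623, 6931, 7541 and 6451 in ATM-KO. Every ATM-KO value was well above every ATM-WT value (1.20 ± 0.094, limma adjusted p = 1.11e-06), where the largest difference of a nuclear-encoded complex III member was 0.63.

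In complex IV, 7 of 13 nuclear-encoded members rose and 1 fell. Cox7b, a small membrane subunit encoded on the X chromosome, held 1967, 2675, 3020.2, 2849 and 2424 in ATM-WT and 4527, 5137, 4692, 5550.1 and 6047 in ATM-KO. The rise was 1.01 ± 0.13 or 2.02-fold (limma adjusted p = 3.85e-05), with no overlap. Cox5a, a subunit on the matrix side, rose from 2949 ± 433 to 4649 ± 472 (0.66 ± 0.12), and Cox6c from 6527 ± 1603 to 9569.6 ± 1277 (0.58 ± 0.17, groups overlapping). Cox6a1, a subunit of the dimer interface, rose by less (0.32 ± 0.10, limma adjusted p = 0.020), and Cox6b1, which faces the intermembrane space, was not called (0.30 ± 0.14, limma adjusted p = 0.092). Cox8a was not called (0.18 ± 0.11, limma adjusted p = 0.22).

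Several complex IV subunits come as paralogs used in different tissues or conditions, and these did not move alike. Ndufa4, named as a complex I subunit but found in complex IV, held 2888, 4087, 4902, 4528 and 3665 in ATM-WT and 3298, 3910.4, 3499, 3602 and 3917 in ATM-KO, with overlapping groups and no call (-0.12 ± 0.13, 95% interval -0.41 to 0.17). Its paralog Ndufa4l2, a target of the hypoxia-inducible factor known to dampen respiration, held 402, 3917, 625, 2841 and 1732 in ATM-WT and 85.7, 72.1, 87.2, 133 and 123 in ATM-KO. All ATM-KO libraries lay below all ATM-WT libraries, although ATM-WT itself spread widely, with A1 and A3 low and A2 and A4 high. The fall by 3.80 on the log2 scale (SE 0.53, limma adjusted p = 9.44e-05, exact permutation p = 0.0079) was the largest difference among the 101 members in this fit. Cox7a2, the widely expressed form of its subunit, rose from 2282 ± 427 to 4155 ± 399.6 (0.88 ± 0.13). Cox7a1, the heart and skeletal muscle form, is not a member by its mean. It held 37.5, 27.8, 35.4, 0.819 and 33.96 in ATM-WT and 112, 203, 128, 154 and 205 in ATM-KO, so that all ATM-KO values lay above all ATM-WT values and ATM-WT library A4 was near 0 (3.03 ± 0.74, limma adjusted p = 0.0046). Of 11 tested skeletal muscle markers 0 were called in either direction, but their median difference was 1.67. Their summed level ranged from 90.9 to 2889.5 in ATM-WT and from 112 to 1781 in ATM-KO. Of 5 cardiac and smooth muscle markers 1 was called higher (median 0.21), with sums of 436 to 918 in ATM-WT and 663 to 1478 in ATM-KO. The part of muscle content in the Cox7a1 level was not tested. The muscle forms Cox6a2 and Cox8b stayed at 0 to 25.0 and at 0 to 11.2 normalized counts over all libraries, under the mean needed for a test. Cox7a2l, which joins complexes III and IV into supercomplexes, was not called (-0.16 ± 0.14, limma adjusted p = 0.36). Cox4i1, the common form of the regulatory subunit, rose from 9590.1 ± 1248 to 15308 ± 2224 (0.67 ± 0.13), and its hypoxia and lung paralog Cox4i2 was low in both groups, 24.5, 24.7, 12.97, 31.3 and 13.7 in ATM-WT and 29.6, 20.4, 20.5, 19.6 and 27.8 in ATM-KO (0.19 ± 0.38, limma adjusted p = 0.72). The testis forms Cox6b2 and Cox7b2 were too low to test, and Cox7b2 was listed at 0 in all ATM-WT libraries.

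**Figure D4:**
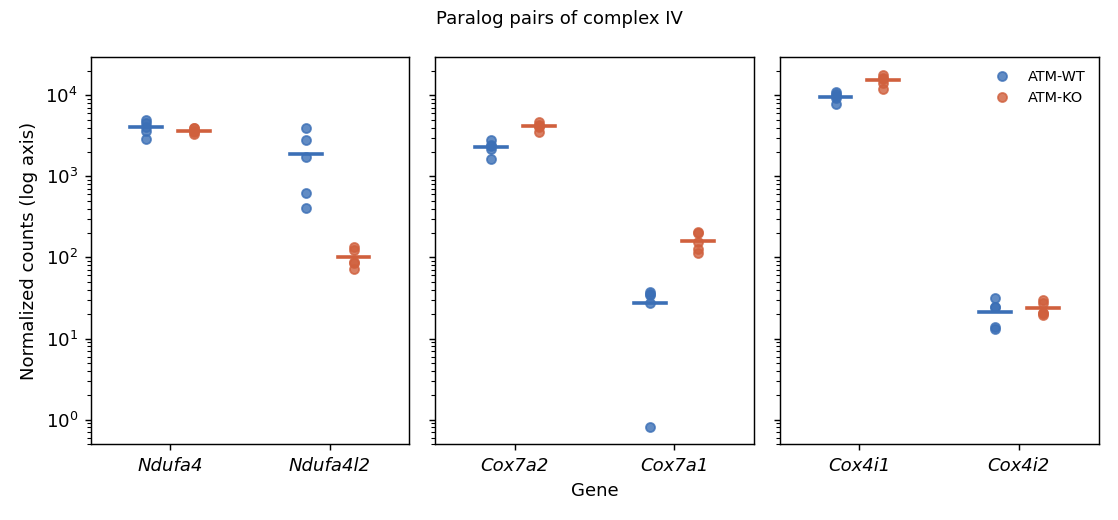
Normalized counts (log axis) in each library for a widely expressed gene and its tissue or hypoxia paralog, with bars at the group means. Ndufa4l2 is lower in all 5 ATM-KO libraries (72.1 to 133 against 402 to 3917), Cox7a1 is higher, and Cox4i2 overlaps between groups.

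Complex V had 11 of 17 nuclear-encoded members called higher and 0 lower, and 9 of these without overlap. Atp5d, which encodes the delta subunit of the central stalk, held 2707, 3751, 3021, 3352 and 2836 in ATM-WT and 7201, 6673, 6769, 6747 and 6649.9 in ATM-KO. The ATM-KO values lay close together and far above ATM-WT, a rise of 1.13 ± 0.10 or 2.19-fold (limma adjusted p = 2.46e-06, exact permutation p = 0.0079), the largest rise of any of the 101 members in this fit. Differences of the other F1 head subunits were smaller. Atp5b, the catalytic beta subunit, rose from 13974 ± 3323 to 19523 ± 1881 (0.51 ± 0.15) and Atp5a1, the alpha subunit, from 12445 ± 1787 to 15819 ± 1041 (0.35 ± 0.11), both with overlapping groups, while Atp5c1 and Atp5e were not called (0.21 ± 0.10 and -0.068 ± 0.12). In the peripheral stalk, which holds the head still, Atp5pb rose from 5621 ± 929 to 9721 ± 1004 (0.80 ± 0.13) and Atp5o from 2719.7 ± 312 to 4093 ± 195 (0.60 ± 0.094), whereas Atp5h was not called (0.057 ± 0.13). All 3 genes of the rotating c ring, which encode the same mature protein with different import signals, rose without overlap. Atp5g1 held 1965, 3112, 2448, 2608 and 2291 in ATM-WT and 3709, 4014, 3783, 3979 and 4161 in ATM-KO (0.68 ± 0.11, limma adjusted p = 3.64e-04). The differences of Atp5g2 and Atp5g3 were 0.63 ± 0.10 and 0.44 ± 0.13. Of the small membrane subunits, Atp5j2 rose from 4407 ± 515 to 6881 ± 611 (0.65 ± 0.10) and Atp5md, whose protein helps ATP synthase dimers form, from 3100.5 ± 619 to 6177 ± 1277 (1.00 ± 0.16). The inhibitor gene Atpif1, outside the symbol pattern, had -0.32 ± 0.13 and was not called (limma adjusted p = 0.070).

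The mtDNA-encoded members showed wide spread between libraries of a group. mt-Co1, the catalytic subunit of complex IV, held 139527, 293328, 158464, 221209 and 170935 in ATM-WT and 145174, 224553, 172563, 168154 and 178272 in ATM-KO. Library A2 was high and A1 low in ATM-WT, and the groups overlapped (-0.11 ± 0.23, 95% interval -0.61 to 0.39). The complex IV genes mt-Co2 (-0.15 ± 0.20) and mt-Co3 (-0.22 ± 0.20) and the complex V genes mt-Atp6 (0.050 ± 0.31) and mt-Atp8 (-0.10 ± 0.17) were not called. mt-Cytb, cytochrome b of complex III, held 51182, 100502, 66776, 71431 and 58632 in ATM-WT and 43963, 66808, 39125, 43201 and 48158 in ATM-KO. It was called lower at the very edge of the threshold (-0.52 ± 0.20, limma adjusted p = 0.0497, exact permutation p = 0.040) with overlapping groups, and the call was lost under most alternatives, for example without ATM-WT library A2 (-0.38, limma adjusted p = 0.092).

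The 7 complex I subunits of mtDNA gave values of both signs and 0 calls. mt-Nd1, a core membrane subunit at the quinone site, held 41756, 82336, 56698, 65666 and 47947 in ATM-WT and 62728, 99547, 62338, 67229 and 76100.1 in ATM-KO (0.34 ± 0.20, limma adjusted p = 0.19). mt-Nd4, a proton-pumping subunit, held 46365, 84176, 58855, 61446 and 48408 in ATM-WT and 36832, 64232, 36757, 39316 and 44406 in ATM-KO (-0.43 ± 0.20, limma adjusted p = 0.095). Values for mt-Nd2, mt-Nd5 and mt-Nd6 were 0.17 ± 0.19, -0.17 ± 0.21 and -0.22 ± 0.17. The short genes mt-Nd3 and mt-Nd4l had the largest standard errors of the 13. mt-Nd3 held 2435, 2021, 4528, 3549.7 and 2083 in ATM-WT and 2161, 3794, 3186, 7261 and 8936 in ATM-KO, where only A14 and A15 lay above all of ATM-WT (0.67 ± 0.36, limma adjusted p = 0.15), and mt-Nd4l had 0.52 ± 0.36 (limma adjusted p = 0.26). mt-Nd4l and mt-Atp8 overlap their neighbours mt-Nd4 and mt-Atp6 on shared transcripts. mt-Nd6 lies on the other strand, and strand use in counting is not stated. Nuclear copies of mtDNA can share reads with these genes. These levels are therefore uncertain in how reads were assigned.

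Some ratios between mtDNA transcripts varied little within a group, although the levels varied widely. The ratio of mt-Nd1 to mt-Cytb was 0.816, 0.819, 0.849, 0.919 and 0.818 in ATM-WT and 1.43, 1.49, 1.59, 1.56 and 1.58 in ATM-KO. The groups were well apart (means 0.844 ± 0.0441 and 1.53 ± 0.0697, SD, n = 5 each), and libraries A1 and A2, at the ends of the ATM-WT range of the mtDNA-encoded sum, differed little in this ratio. For mt-Nd1 against mt-Nd4 the ratio was 0.901, 0.978, 0.963, 1.07 and 0.990 in ATM-WT and 1.70, 1.55, 1.70, 1.71 and 1.71 in ATM-KO, also without overlap. The ratio of mt-Nd2 to mt-Nd4 was 0.379, 0.381, 0.367, 0.370 and 0.367 in ATM-WT and 0.634, 0.537, 0.502, 0.581 and 0.584 in ATM-KO. Of all 78 pairs of the 13 genes, 12 had ratios that did not overlap between groups, and 7 of these involved mt-Nd1 and 4 involved mt-Cytb. These pairs were described after the values were seen and were not tested, and a ratio shows unequal change without saying which gene changed. No such count was made for pairs of other genes, and 35.2% of all tested genes taken singly did not overlap between groups. As a share of the mtDNA-encoded sum, mt-Nd1 was 10.4 ± 0.457% in ATM-WT and 14.3 ± 0.630% in ATM-KO (SD, n = 5 each). The share of mt-Nd4 was 10.7 ± 0.765% and 8.54 ± 0.721%, and that of mt-Cytb 12.4 ± 0.572% and 9.35 ± 0.811%, and for these 3 genes the libraries did not overlap. When each library was rescaled to the same mtDNA-encoded sum, an alternative chosen after seeing the data, mt-Nd1 was called higher (0.45 ± 0.16, limma adjusted p = 0.047) and was the only one of the 13 called, where 15.5% of all tested genes were called higher. In that rescaling mt-Cytb had -0.40 (limma adjusted p = 0.078), and the median over all genes moved to 0.12.

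**Figure D5:**
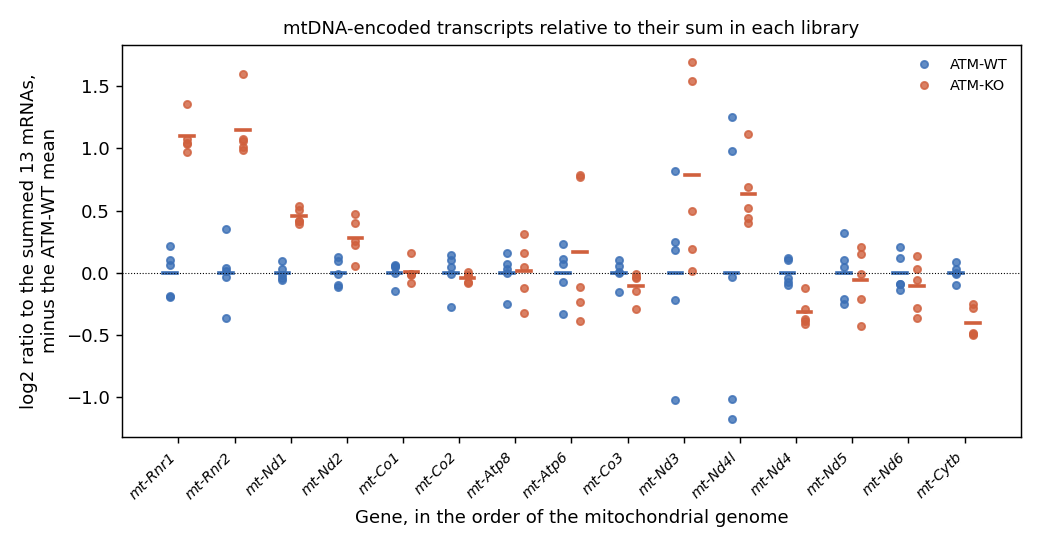
Each point is a library, showing the log2 ratio of a transcript to the summed 13 mtDNA-encoded mRNAs minus the ATM-WT mean, with bars at group means. Genes stand in the order of the mitochondrial genome (GENCODE M21). The rRNAs and mt-Nd1 are higher in all ATM-KO libraries than in all ATM-WT libraries and mt-Nd4 and mt-Cytb lower.

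The mtDNA-encoded ribosomal RNAs, which the symbol rule does not take, were named after their values were seen. mt-Rnr1 held 4538, 7449, 4669.9, 7518 and 5228 in ATM-WT and 11348, 13471, 9659, 10528 and 12059 in ATM-KO, without overlap (0.98 ± 0.16, limma adjusted p = 3.08e-04). mt-Rnr2 rose likewise from 6256 ± 838 to 12821 ± 1811 (1.03 ± 0.12, limma adjusted p = 2.74e-05). The rRNA genes lie just before mt-Nd1 in the mitochondrial genome, and mt-Cytb lies at the far end. After rescaling to the same mtDNA-encoded sum, differences in gene order were 1.10 for mt-Rnr1, 1.15 for mt-Rnr2, 0.45 for mt-Nd1 and 0.28 for mt-Nd2. From mt-Co1 to mt-Co3 they were 0.0054, -0.040, 0.013, 0.16 and -0.10. In order from mt-Nd3 to mt-Cytb they were 0.79, 0.63, -0.32, -0.060, -0.11 and -0.40. Those of mt-Nd3 and mt-Nd4l had the largest SE (0.37 and 0.41), and a part of position was not tested. How the libraries treated rRNA is not stated in the labels.

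Of 13 lists of other genes of mitochondrial energy metabolism, 9 had positive medians. The 4 with negative medians were the assembly lists of complexes I (-0.23), II (-0.20), III (-0.072) and V (-0.061). The complex I list holds only factors outside the symbol pattern, and the 8 Ndufaf factors had a median of 0.41. All 13 lists were chosen with results of these data known. Their counts stand beside 22.1% of all tested genes called higher and 24.3% lower, or 26.7% and 24.7% of genes with a mean of at least 100. Of 19 tested electron carrier and coenzyme Q genes 8 rose and 3 fell (median 0.24). The rises included the methyltransferase gene Coq3 (1.36 ± 0.16), Etfdh, which feeds electrons from fat oxidation (0.82 ± 0.10), and cytochrome c itself, Cycs (0.84 ± 0.11). The 3 falls were the coenzyme Q genes Coq2 (-0.77 ± 0.12), Coq4 (-0.72 ± 0.22) and Coq9 (-0.44 ± 0.14). In complex IV assembly 7 of 25 rose, near that share, and 2 fell (median 0.20). The copper chaperone gene Cox17 rose from 794 ± 148 to 1446 ± 219, Cmc2 rose (0.73 ± 0.11), and Smim20, whose protein holds newly made mt-Co1, fell from 886 ± 88.5 to 406 ± 48.02 (-1.13 ± 0.12, limma adjusted p = 1.36e-05). Complex III assembly had 1 rise in 6 (Uqcc2, 0.42 ± 0.14) and complex V assembly 1 fall in 4 (Tmem242, -0.32 ± 0.10). Of 28 genes of mitochondrial membranes and protein import 21 rose and 0 fell (median 0.50), such as the translocase gene Timm23 from 1986 ± 111 to 3966 ± 253 and the outer membrane channel gene Vdac2 from 3491 ± 334 to 6805 ± 494. In the citrate cycle and pyruvate entry 14 of 26 rose and 2 fell (median 0.31), with Idh2 (0.70 ± 0.092) and citrate synthase, Cs (0.67 ± 0.10), among the rises.

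Of 25 genes of mtDNA transcription and transcript processing 6 rose and 2 fell (median 0.23), a share of rises no larger than the 26.7% of all genes with a mean of at least 100. Lrpprc and its partner Slirp, which stabilise mtDNA-encoded mRNAs, rose from 1263 ± 288 to 2075 ± 95.9 and from 805 ± 241 to 1294 ± 227, and Fastkd5, needed to process transcripts that lack flanking tRNAs, rose (0.63 ± 0.15). The polymerase gene Polrmt (0.74 ± 0.30, limma adjusted p = 0.060) and the packaging factor gene Tfam (0.27 ± 0.17, limma adjusted p = 0.23) were not called. For mtDNA replication 2 of 10 rose and 2 fell, both below the shares over all genes (22.1% and 24.3%), with Top1mt (0.84 ± 0.13) and Rrm2b (0.68 ± 0.18) higher and Dguok, a kinase that salvages purine deoxynucleosides, lower (-0.87 ± 0.15). In the mitochondrial ribosome 36 of 78 genes rose and 3 fell (median 0.29), led by Mrpl20 from 1149 ± 174 to 2816 ± 298, Mrps11 (1.05 ± 0.11) and Mrps28 (1.17 ± 0.15). Of 17 tested regulators 6 rose and 2 fell (median 0.26), with the chromatin cofactor gene Hcfc1 (0.66 ± 0.094) and Gabpb2 (0.54 ± 0.11) higher and Myc lower, from 2406 ± 1110.2 to 984 ± 129.6 (-1.17 ± 0.27, limma adjusted p = 0.0033). The coactivator gene Ppargc1a, a driver of mitochondrial biogenesis, was low in both groups and rose from 27.6 ± 6.84 to 63.2 ± 15.8 (1.16 ± 0.32, limma adjusted p = 0.011).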

How the data were processed

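RNA-seq libraries of 5 ATM-WT and 5 ATM-KO tumours were compared. The authors deposited 1 table of normalized counts (a signal, not whole counts) for 23086 gene symbols. The tools STAR, Salmon and DESeq2 appear, without role or version, per the submitters' processing notes. A genome build or annotation was not stated in any source used. Table columns carry library numbers (A1 to A5, A11 to A15) that no sample label gives, so each was assigned to its group by name only. Only 59.2 to 69.6% of low values lay within 0.05 of a whole multiple of a library's spacing, so no count model was run. From these values, log2(value + 1) was fitted with limma 3.58.1 (R 4.3.3, empirical Bayes with a trend) over all 16517 genes with a mean of at least 10, with Benjamini-Hochberg adjustment over all of them. Its script was tested on simulated data. Two-sided exact permutation tests enumerate all 252 splits, so 0.0079 is the smallest p they can give. Genes named are all mtDNA-encoded and Sdh members, for each other complex up to 5 called members per direction with the smallest p and the 2 with the highest mean, tissue paralogs and up to 3 genes per list. Others, such as Ndufaf4, Ndufaf7, Atp5md, the core subunits, Ppargc1a and the rRNAs, were chosen after values were seen. Of the genes this rule takes, 2 are not reported here. Members and lists were chosen with earlier results of these data known. Alternatives were other pseudocounts, filters, scalings, variance models and each library left out.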

Additional observations from a re-analysis of the deposited data

Results flagged for a closer look

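Within a group of 5 libraries, a library was singled out where its gap to the nearest of the others, divided by the range, passed Dixon's critical value of 0.71. Of 116 groups examined, 8 passed, and chance alone passes about 1 in 20.

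In ATM-KO, Atp5d was highest in library A11, at 7200.91 normalized counts against 6649.85 to 6769.21 in the others, all above ATM-WT. Library A15 was highest for Ndufb6 (2425.67 against 1870.92 to 1957.32) and for Cox8a (7006.81 against 5121.16 to 5502.08). Library A15 was also the highest ATM-KO library for 59 of the 88 nuclear-encoded members. mt-Nd4 was highest in ATM-KO library A12, at 64232.2 against 36757.2 to 44405.9.

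Among genes below the mean of 100, Cox7a1 was lowest in ATM-WT library A4, at 0.81903 against 27.7952 to 37.518. Cox6a2 was highest in ATM-WT library A3, at 24.9604 against 0 to 6.13251. Cox8b was highest in the same library, at 10.1965 where the other ATM-WT libraries were listed at 0, and in ATM-KO library A11, at 11.1718 against 0 to 1.49798.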

How the results depend on the processing

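The nuclear-encoded count of 43 higher ranged from 37 (quantile normalization) to 52 (upper-quartile scaling) over the alternatives with all libraries, and from 34 (without ATM-KO library A15) to 47 (without ATM-WT library A2) with 1 library left out. The 3 lower became 5 when libraries were scaled to the same library total or to the same total of genes not encoded by mtDNA. Of the mtDNA-encoded members, 1 was higher without libraries A2 and A4 and 1 when scaled to the same mtDNA-encoded total, and leaving out 1 library gave 0 to 1 higher, the 1 being without ATM-KO library A11. The 1 lower became 0 with pseudocounts of 0.1 and 10, a mean of at least 100, no variance trend, without A2 and A4, and at the same mtDNA-encoded total. It became 2 with quantile normalization and at the same library total, and 0 to 2 with 1 library left out, where only the sets without ATM-WT library A1 (1) and without ATM-KO library A12 (2) kept a call. Complex II rose from 1 to 2 with upper-quartile scaling and without A2 and A4. Complex III fell from 5 to 3 with no filter, quantile normalization, both total scalings and no trend, and to 3 without ATM-WT library A1 or A4 or ATM-KO library A12, A14 or A15 (range 3 to 6). The cause of these changes was not tested.

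Of 30 named genes that were called, which are members apart from Cox7a1, 23 kept direction and call under every alternative. The others were Atp5a1, Atp5b, Atp5g3, Cox6a1, Uqcr10, Uqcrb and mt-Cytb, of which the first 4 and both Uqcr genes lost their call under quantile normalization. Reversals of sign concerned uncalled members only. Cox7a2l was 0.048, mt-Atp8 0.064, mt-Co1 0.18, mt-Co2 0.16, mt-Co3 0.049 and mt-Nd5 0.017 without A2 and A4. Quantile normalization gave mt-Atp6 -0.078, mt-Co1 0.098 and mt-Nd2 -0.080. For mt-Atp6 the total scalings gave -0.018 and -0.013, and leaving out A1, A14 or A15 gave -0.14, -0.090 and -0.13 (range up to 0.23, without A13). At the same mtDNA-encoded total mt-Atp8 was 0.013 and mt-Co1 0.0054. Without A2, mt-Co1 was 0.049 and mt-Co2 0.00049, and without A13 mt-Atp8 was 0.029, the other end of each range being without A1 (-0.22, -0.26 and -0.17). Quantile normalization moved the median of all genes to 0.15, beside 0.27 for nuclear-encoded and -0.080 for mtDNA-encoded members, with 27.3% of all genes higher and 20.1% lower. No paired analysis was possible because the library numbers of the columns are not those of the sample labels. The median of mtDNA-encoded members ranged from -0.20 to 0.00049 with 1 library left out. If library A2 was as shallow as roughly estimated, low genes there are less precise. How reads of mtDNA genes were assigned is not stated.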
